A study of Mus musculus with 12 samples.

Results

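The regions described here are p53 peaks of K17KO mouse skin that lie near the ends of protein-coding genes. A peak was taken as near a gene end when its midpoint lay within 5 kb of either end of a protein-coding gene in RefSeq's mouse gene table. That table is for GRCm38.p6, whose coordinates are those of mm10. The rule took 417 of the 1101 peaks in the K17KO p53 list (37.9%, exact 95% interval 35.0 to 40.8), out of 9474 peaks in the 3 lists of the series. Of the other 684 K17KO peaks, 302 lay deeper inside genes and 382 between genes. The samples were chromatin immunoprecipitations from back skin of mice aged 8 to 10 weeks with hair follicles in anagen, under a protocol of 5 Gy of ionizing radiation. The labels name T0 and 6 h samples for p53 in K17KO mice, for p53 in wild-type (WT) mice and for H3K4me3 in WT mice, with 2 samples in each of these 6 groups. All groups carry the radiation label, T0 included. The labels do not spell out K17KO, and they do not say whether the 2 samples of a group are from different mice.

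p53 is a transcription factor that is stabilised after DNA damage and binds DNA as a tetramer at response elements made of a pair of half-sites. Its targets include genes of cell cycle arrest, apoptosis and its own feedback control, and many of its elements lie in promoters or first introns. Trimethylation of lysine 4 of histone H3 (H3K4me3) marks nucleosomes around active gene starts, mostly just downstream of the start. In skin, p53 is known for driving cell cycle arrest in the epidermis and apoptosis in growing hair follicles after radiation.

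Each list is a single set of peaks with no library, time or replicate named, so replicate error is unknown throughout, and T0 cannot be told apart from 6 h. The p53 list without a genotype in its name was taken as WT, so a difference between the 2 p53 lists cannot be told apart from a difference in how the lists were made. The lists have different cut-offs: the lowest deposited −log10 q was 1.04 in the K17KO list and 0.376 in the WT list. Peaks are the units of every test, and its p-value and interval cover counting error alone. The tests are Fisher's exact tests (two-sided), with Benjamini-Hochberg adjustment over the 11 planned tests, of which 7 passed at 0.05. Peak lists do not measure expression, so neither the tissue label nor the K17KO genotype could be checked with marker genes.

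The sequences printed here are from 2 of the 5 p53 peaks shared with WT skin, from starts of genes facing away from each other, and from 2 other gene starts. The shared peaks at Bax, Cdc34 and Ndnf are not printed, and Rps27l and Rps19 were chosen after their values were seen. All the printed stretches are RefSeq sequences of GRCm38.p6 on the plus strand, 5′ to 3′. The first pair shows the stretches under the Rps27l and Rps19 peaks, at chr9:66946276-66946335 and chr7:24884783-24884842. Their capitals mark a match to the p53 response element, 2 half-sites of 10 bases with a spacer of 0 to 13 bp and at most 2 mismatches in all.
Rps27l: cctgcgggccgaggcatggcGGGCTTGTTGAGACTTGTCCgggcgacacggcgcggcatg
Rps19: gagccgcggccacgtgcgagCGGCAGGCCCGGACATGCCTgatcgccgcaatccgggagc
The Rps27l match has 1 mismatch and no spacer, and its centre lay 7.5 bp from the midpoint of the peak. The Rps19 match has 2 mismatches and no spacer, and its centre lay 18 bp from the midpoint. Matches with 2 mismatches also lay under the Ap1ar and Lipa peaks, which overlapped no WT peak. Such matches were found in 10.4% of promoter windows overlapped by a peak and in 8.95% of all promoter windows.

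A second pair shows the whole stretch between 2 listed starts that face away from each other, each reached by a K17KO peak that overlapped H3K4me3, at chr9:109082382-109082495 and chr16:18876638-18876749. Capitals mark CCAAT boxes (CCAAT) and GC boxes (GGGCGG) on either strand. These genes were chosen after their values were seen.
Tma7 and Ccdc51: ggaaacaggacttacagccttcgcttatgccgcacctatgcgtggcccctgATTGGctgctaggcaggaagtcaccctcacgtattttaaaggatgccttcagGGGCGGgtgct
Mrpl40 and Hira: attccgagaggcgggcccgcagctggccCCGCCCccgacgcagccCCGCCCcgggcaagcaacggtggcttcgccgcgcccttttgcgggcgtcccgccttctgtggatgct
The first peak had its midpoint 21.5 bp upstream of Tma7, which encodes a translation machinery-associated protein, with a deposited fold enrichment of 5.66. The second had its midpoint 77.5 bp downstream of the start of Hira, a chaperone of histone H3.3, and 190.5 bp from the start of Mrpl40, a mitochondrial ribosomal protein gene, with a fold of 5.21.

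The last pair shows stretches upstream of a listed start at Lmcd1, chr6:112273508-112273757, and Abl2, chr1:156558579-156558786. The Abl2 start used is a second listed one, not the gene's outermost start. These are the peaks of highest fold, after Rps27l, whose midpoint lay in a listed promoter window, and they were likewise chosen after their values were seen. Capitals mark CCAAT boxes, GC boxes and the cyclic AMP response element (TGACGTCA).
Lmcd1: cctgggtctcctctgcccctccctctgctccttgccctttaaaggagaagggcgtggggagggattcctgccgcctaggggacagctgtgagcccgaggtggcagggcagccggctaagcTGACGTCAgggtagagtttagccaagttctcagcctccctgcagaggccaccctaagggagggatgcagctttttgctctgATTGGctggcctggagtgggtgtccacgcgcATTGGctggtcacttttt
Abl2: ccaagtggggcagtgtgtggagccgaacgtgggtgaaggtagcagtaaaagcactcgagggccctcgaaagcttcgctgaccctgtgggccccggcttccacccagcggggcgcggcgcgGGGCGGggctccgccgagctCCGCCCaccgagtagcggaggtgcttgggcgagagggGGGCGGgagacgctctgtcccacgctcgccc
Lmcd1, a LIM-domain regulator of transcription, had a 6.15-fold peak 120 bp upstream of its start. Abl2, a cytoplasmic tyrosine kinase, had a 6.00-fold peak whose midpoint lay 192.5 bp downstream of the gene's outermost start. That midpoint lay 4.5 bp upstream of the second listed start. Most of the printed Abl2 stretch, with its GC boxes, thus lies inside the gene as counted from the outermost start.

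The peaks near gene ends were gathered at gene starts, just inside the gene. Of the 417, 242 (58.0%) lay within 1 kb of an end, and the fullest interval was 250 to 500 bp, with 98 peaks. The next interval, 500 to 1000 bp, held 75 peaks, and the interval from 4 to 5 kb held 31. A gene strand was known for 320 of the 417, through the promoter table. The nearest end was a start for 229 of these 320 (71.6%) and the other end for 91. Among the 229 at a start, 193 (84.3%, interval 78.9 to 88.7) lay downstream of it, with a median position 389.5 bp inside the gene. The interval from 250 to 500 bp downstream held 62 peaks and the 250 bp upstream of the start held 11. All these positions count from the gene's outermost start. Counted from the nearest of all listed starts within 5 kb, 191 of 257 K17KO peaks (74.3%, interval 68.5 to 79.5) lay downstream. In the H3K4me3 list, 2623 of the 2988 peaks by an outermost start (87.8%) lay downstream of it, with a median position 320 bp inside the gene.

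WT p53 peaks near gene ends were spread more evenly. In the K17KO list 242 of 417 peaks (58.0%) lay within 1 kb of an end, against 160 of 502 (31.9%) in the WT list, a difference of 26.2 percentage points (interval 19.8 to 32.2, odds ratio 2.96, Fisher's exact test, adjusted p = 8.05e-15). A share of 37.9% of the K17KO list lay within 5 kb of an end, against 17.3% of the WT list (502 of 2909), a difference of 20.6 points (interval 17.5 to 23.8, Fisher's exact test, adjusted p = 5.26e-40). These windows cover 12.2% of the chromosomes' annotated span. Tests of the side of the start were added after the data were seen and adjusted over the 2 of them. They gave 84.3% downstream in the K17KO list and 52.3% in the WT list (112 of 214), a difference of 31.9 points (interval 23.5 to 39.8, Fisher's exact test, adjusted p = 5.83e-13). The nearest end was a start for 71.6% of K17KO peaks and 53.6% of WT peaks with a strand (214 of 399), a difference of 17.9 points (interval 10.8 to 24.7, exact test, adjusted p = 1.08e-06). That difference was 10.1 points and no longer passed among peaks with a q-value of at most 0.01, where 51 WT peaks were left. The difference in the side of the start ranged from 19.3 to 36.9 points over 10 alternatives and passed in each. It was 33.3 points among p53 peaks that overlapped no H3K4me3 peak (151 of 184 in K17KO, 96 of 197 in WT). The lack of a listed H3K4me3 peak does not show that the mark was absent. The difference in the side of the start was smallest when the nearest of all listed starts was used in place of the gene's outermost end. There 191 of 257 K17KO peaks (74.3%) and 138 of 251 WT peaks (55.0%) lay downstream.

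**Figure D1:**
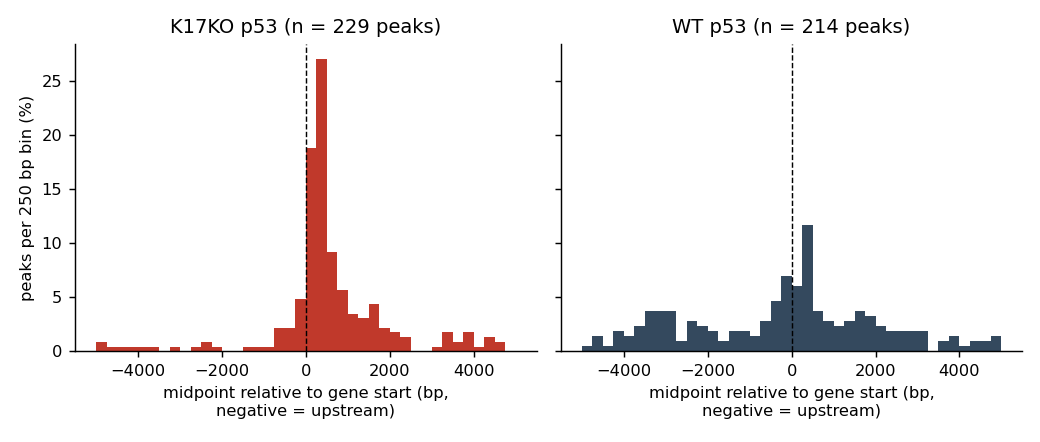
Position of p53 peak midpoints relative to a gene's outermost start, for peaks whose nearest protein-coding gene end is that start. Bins are of 250 bp, as a percentage of the peaks by a start (left, K17KO, n = 229, and right, WT, n = 214). Negative values are upstream and the dashed line is the start. The K17KO peaks pile up in the first 500 bp inside the gene, whereas WT peaks lie on both sides, with 68 of 214 more than 1 kb upstream.

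Depth differs between the lists. Near gene ends the median K17KO peak rested on 11 fragments at its summit and the median WT peak on 7. A q-value of at most 0.01 was met by 310 of 417 K17KO peaks (74.3%) and by 62 of 502 WT peaks (12.4%). Its part in the placement of the peaks was not tested beyond the alternatives, in which the share within 1 kb of an end remained higher in K17KO, by 23.9 to 28.0 points.

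Peaks near gene ends overlapped H3K4me3 far more often than other K17KO peaks did. Over the whole K17KO list 67 peaks, or 6.09%, overlapped an H3K4me3 peak by at least 1 bp. Near gene ends 60 of 417 did (14.4%, interval 11.2 to 18.1), against 7 of the 684 other K17KO peaks (1.02%), a difference of 13.4 points (interval 10.1 to 17.1, odds ratio 16.3, Fisher's exact test, adjusted p = 7.93e-19). The H3K4me3 list itself lies mostly near gene ends, with 4046 of its 5464 peaks (74.0%) inside the same windows. An H3K4me3 peak lay within 1 kb of 86 peaks near gene ends (20.6%) and of 10 others (1.46%). The H3K4me3 libraries are labelled WT, so no mark of K17KO skin was available beside the K17KO p53 peaks. H3K4me3 peaks reached 4702 of the 21887 protein-coding genes (21.5%), and a gene without a listed peak may still carry the mark.

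The overlap followed the gene start. In the H3K4me3 list, 2174 of the 2988 peaks by a start (72.8%) themselves lay within 1 kb downstream of it. The part of that placement in the differences below was not tested. Peaks whose nearest end was a start overlapped H3K4me3 in 45 of 229 cases (19.7%), and peaks at the other end in 2 of 91 (2.198%), a difference of 17.5 points (interval 10.3 to 23.3, Fisher's exact test, adjusted p = 3.27e-05). Where the window was narrowed to 1 kb this difference was 13.7 points and no longer passed, with 23 peaks left at the other end. Peaks within 1 kb of an end overlapped in 48 of 242 cases (19.8%), against 12 of 175 (6.86%) between 1 and 5 kb, a difference of 12.98 points (interval 6.41 to 19.2, exact test, adjusted p = 0.000305). Among the upper 50% of peaks by fold it was 9.81 points and no longer passed. The overlap was highest at 250 to 500 bp from an end, where 31 of 98 peaks (31.6%) overlapped, and 0 of 44 did between 2 and 3 kb (upper limit of the interval 8.04%). On the downstream side of a start, 22 of the 62 peaks at 250 to 500 bp overlapped (35.5%), and on the upstream side 2 of 11 within 250 bp.

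**Figure D2:**
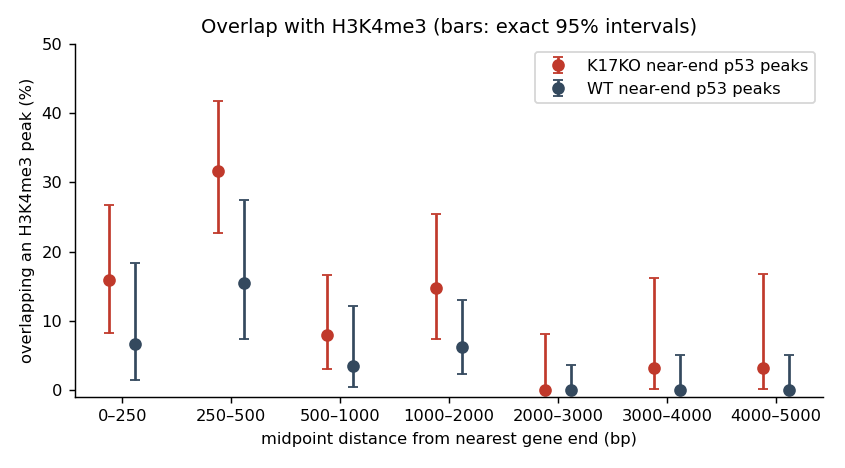
Percentage of p53 peaks near gene ends that overlap an H3K4me3 peak, by distance of the midpoint from the nearest gene end in bp, for K17KO (left point of each pair) and WT (right point); bars are exact 95% intervals that cover counting only. Both lists have their highest share at 250 to 500 bp, 31.6% of 98 K17KO peaks and 15.5% of 58 WT peaks.

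Compared with WT p53 peaks near gene ends, the K17KO peaks overlapped H3K4me3 more often, in 60 of 417 cases (14.4%) against 20 of 502 (3.98%), a difference of 10.4 points (interval 6.71 to 14.4, odds ratio 4.05, Fisher's exact test, adjusted p = 7.67e-08). In the whole WT list 0.963% of peaks overlapped. Among peaks with a q-value of at most 0.01 the difference was 7.10 points and no longer passed, with 62 WT peaks left. Within 250 to 500 bp of an end the shares were 31.6% in K17KO and 15.5% in WT, and at 1 to 2 kb they were 14.7% in K17KO and 6.19% in WT. These binned differences were not tested. Near gene ends the median width was 340 bp for K17KO peaks and 223.5 bp for WT peaks, and a wider peak can more easily meet another by 1 bp. Where an overlap of 50% of the p53 peak was required, the difference between the lists was 6.64 points and passed. The part of width and of place in it was not tested.

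The H3K4me3 peaks that met a K17KO peak were set beside all H3K4me3 peaks near gene ends. Their deposited fold ran from 1.24 to 2.36 and had a median of 1.504, with medians of 205 fragments and 137 in the background. All 4046 H3K4me3 peaks near gene ends had a median fold of 1.57, with medians of 176 fragments and 113 in the background, and the difference was not tested. The K17KO peaks that overlapped had a median fold of 4.75 (n = 60), and those that did not a median of 4.60 (n = 357).

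**Figure D3:**
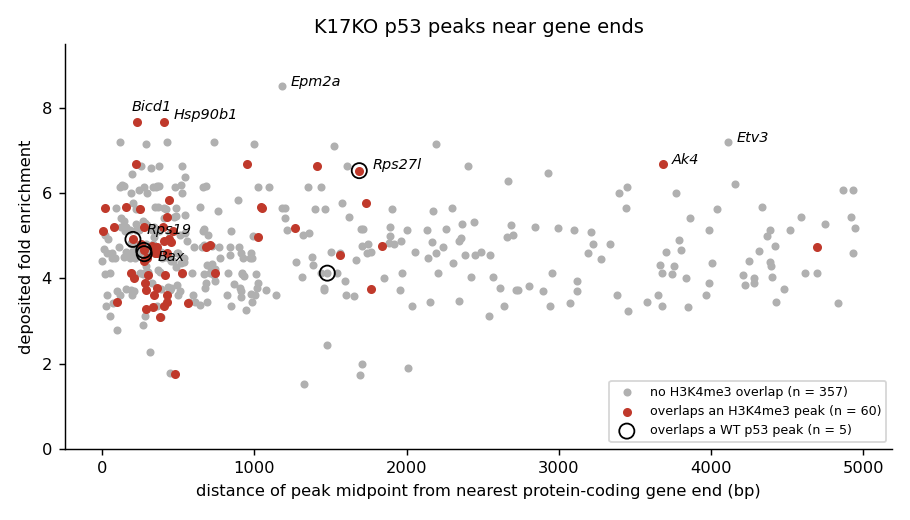
Deposited fold enrichment of each of the 417 K17KO p53 peaks near gene ends (vertical axis, a ratio) against the distance of its midpoint from the nearest protein-coding gene end (horizontal axis, bp). Red points overlap an H3K4me3 peak (n = 60), circled points overlap a WT p53 peak (n = 5), and the red points crowd below 500 bp, with a median fold of 4.75 against 4.60 for the grey ones.

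Overlap with the WT p53 list was rare. It was found for 5 of the 417 peaks (1.20%, interval 0.390 to 2.78) and for 4 of the other 684 K17KO peaks (0.585%). The share over the whole K17KO list was 0.817%. The difference of 0.614 points did not pass (interval −0.525 to 2.23, Fisher's exact test, adjusted p = 0.381). All 5 lay inside their genes, at Rps27l, Rps19, Bax, Cdc34 and Ndnf, and 3 of the 5 also overlapped H3K4me3.

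Rps27l, a ribosomal protein-like gene known as a p53 target, had the highest K17KO fold of the 5. Its K17KO peak at chr9:66946091-66946536 had a deposited fold of 6.53, from 18 fragments over a background of 1.91, and its WT peak a fold of 4.51, from 18 fragments over 3.21. The K17KO midpoint lay 1689 bp inside the gene and 100 bp upstream of a second listed start, with the response element match printed above almost at its centre. An H3K4me3 peak of 1.36-fold overlapped it.

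Rps19 encodes a protein of the small ribosomal subunit, and its K17KO peak at chr7:24884591-24884999 held the second match printed above. The K17KO fold was 4.91, from 18 fragments over 2.87, and the WT fold was 6.44, from 31 fragments over 3.97. The overlapping H3K4me3 peak was 1.31-fold. Rps27l and Rps19 thus stand in opposite order in the 2 lists, although folds of separate lists are each relative to their own background.

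Bax, which permeabilises mitochondria in apoptosis, had a K17KO peak at chr7:45466485-45466775, 273.5 bp inside its start. Its K17KO fold was 4.66, from 17 fragments over 2.87, and its WT fold was 6.70, from 19 fragments over 1.98. A 1.53-fold H3K4me3 peak overlapped. Cdc34, the ubiquitin-conjugating enzyme of the SCF ligases, had a K17KO fold of 4.58 (13 fragments over 2.06) and a WT fold of 3.87 (12 fragments over 2.36). Ndnf, which encodes a secreted neurotrophic factor, had a K17KO fold of 4.12 (11 fragments over 1.91) and a WT fold of 3.38 (6 fragments over 1.07). Neither of these last genes' peaks overlapped H3K4me3, whose nearest peaks lay 424 and 973 bp away.

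Other well-known p53 targets had no K17KO peak near an end, as had most genes, since 2.37% of all protein-coding genes had one. Apart from Bax, the genes reported in every case had their nearest K17KO peak well beyond 5 kb. It lay 59.3 kb from Cdkn1a, which encodes the cell cycle inhibitor p21, 135.6 kb from Mdm2, the ubiquitin ligase that degrades p53, and 14.5 kb from Ccng1, which encodes cyclin G1. The nearest peaks to Bbc3, which encodes Puma, and to Trp53inp1 lay 101.2 kb and 978.1 kb away. For Trp53 itself the distance was 186.8 kb, and for the keratin gene Krt17 it was 1181.6 kb. The WT list held peaks at 3 of these starts, at −54 bp for Cdkn1a, 213.5 bp for Ccng1 and 270 bp for Bbc3, where negative is upstream. The absence of a peak from a list does not show that p53 was not bound.

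The peaks of highest fold belonged to genes of varied function. The highest was at Epm2a, the gene of the glycogen phosphatase laforin, with 8.52-fold, from 17 fragments over a background of 1.11, at chr10:11343655-11344090 and 1181 bp inside the start. Hsp90b1, the endoplasmic reticulum chaperone Grp94, had 7.67-fold, from 14 fragments over 0.956, 407 bp inside the start. Bicd1, a dynein adaptor, had the same 7.67-fold from 14 fragments over 0.956, 230.5 bp inside its start. Both overlapped H3K4me3 and Epm2a did not.

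After these came 8 peaks between 7.11 and 7.20-fold, each on 13 to 16 fragments. They were at Dnajc10, a disulfide reductase of the endoplasmic reticulum (425.5 bp inside the start), Tnpo3, the import receptor of splicing factors (117.5 bp), and Snx25, a sorting nexin (734.5 bp). They were further at Arid1b, a subunit of the BAF chromatin remodeller (1000.5 bp inside), Fam83a (1526 bp from an end), and the far end of Etv3, an ETS-family repressor (4108.5 bp). The remaining 2 lay outside a gene, 287 bp upstream of Tmem9b and 2193 bp beyond Prss12, which encodes a serine protease. The Prss12 peak lay nearer to the noncoding gene Snhg8, at 459 bp. None of these 8 overlapped H3K4me3.

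The next 9 peaks had folds of 6.63 to 6.69 on 12 to 15 fragments. Those at Prep, a prolyl endopeptidase, and at Ak4, a mitochondrial adenylate kinase, had 6.69-fold and overlapped H3K4me3. So did those at Gpbp1, a GC-rich promoter-binding protein (6.68-fold), and Nrip1, a nuclear receptor corepressor (6.65-fold). Bard1, the partner of Brca1 in DNA repair, had 6.65-fold, 524 bp inside its start. The centrosomal genes Cep350 and Cdk5rap2 also stood at 6.65-fold, as did Elk3, an ETS-family factor, and Mettl9, a histidine methyltransferase, at 6.63. Below these, the peaks that completed the 10 of highest fold with H3K4me3 were at Rps27l, Nudcd2 (5.84-fold), Tshz1 (5.76-fold) and Tsen15, a subunit of the tRNA splicing endonuclease (5.68-fold).

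The order of such peaks rests on small differences in fragments and background. The peaks at Dnajc10 and Arid1b both had 13 fragments and differed in background alone, 0.945 and 0.956. The 417 peaks took 183 distinct fold values, and the commonest, 4.12, was shared by 15 peaks. Folds ran from 1.52 to 8.52 with a median of 4.60 (quartiles 4.04 and 5.21). Fragments at the summit ran from 6 to 141 with a median of 11, and widths from 291 to 893 bp with a median of 340.

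In strength, no difference between peaks near gene ends and the rest of the list passed a test. The fold was above the list's median in 207 of 417 peaks near gene ends (49.6%) and in 332 of 684 others (48.5%), a difference of 1.10 points (interval −4.96 to 7.16, Fisher's exact test, adjusted p = 0.832). The −log10 p was above its median in 48.7% near gene ends and 49.0% of others, a difference of −0.296 points (interval −6.35 to 5.77, exact test, adjusted p = 0.95). The width was above its median in 52.5% near gene ends and 47.4% of others, a difference of 5.15 points (interval −0.935 to 11.2, exact test, adjusted p = 0.146). These intervals allow differences of several points either way in fold and −log10 p.

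The caller's background was higher near gene ends. It was above the list's median in 236 of 417 peaks near gene ends (56.6%) and in 304 of 684 others (44.4%), a difference of 12.2 points (interval 6.07 to 18.1, odds ratio 1.63, Fisher's exact test, adjusted p = 0.00021). The median background was 1.67 fragments near gene ends and 1.39 elsewhere. With the window at 1 kb the difference was 4.40 points and did not pass. A count of 10 or more fragments at the summit was reached by 326 peaks near gene ends (78.2%) and by 459 others (67.1%), which was not tested.

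Backgrounds above 10 fragments were less frequent near gene ends, with 9 of 417 peaks (2.16%) there and 35 of the 684 others (5.12%), a difference that was not tested. The 9 lay at the genes Gm40363, Gm40365, Gm40367, Gm51572, Gm51591, Duxf3 and Sfi1, with Gm40365 and Duxf3 each holding 2. The Gm40363 peak rested on 82 fragments over 28.7, a fold of 2.80, and the Sfi1 peak on 133 over 75.5, a fold of 1.75. Reads at Duxf3, a gene of a repeated family, may be shared with near-identical copies. The Sfi1 peak was the only one of the 9 that overlapped H3K4me3.

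The peaks reached 519 of the 21887 protein-coding genes (2.37%), since 86 peaks lay within 5 kb of 2 genes and 16 within 5 kb of 3. WT p53 peaks reached 596 genes (2.72%). Of the 417 peaks, 26 shared a gene with a WT peak near its ends, and 16 had a WT peak within 5 kb. By chromosome, the share of K17KO peaks that lay near gene ends was highest on chromosome 19 (16 of 28, 57.1%) and lowest among autosomes on chromosome 13 (11 of 41, 26.8%), which was not tested. Peaks with 2 or more gene starts within 5 kb numbered 38, of which 10 (26.3%) overlapped H3K4me3. An end of a noncoding gene lay within 1 kb of 42 peaks, a long noncoding RNA gene in 29 of them. Some genes held 2 of the peaks. At Rimbp3, chosen after its values were seen, both overlapped H3K4me3, with folds of 4.75 and 4.12. A second peak lay 3965 bp inside Ccdc51, with a fold of 3.62 and no H3K4me3 overlap.

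Lists of genes by function had few members with a peak, close to the background of 2.37%. In all, 18 of 621 listed genes had one. Among p53 targets it was 2 of 56, Bax and Rps27l. The WT list, with its lower cut-off, reached 10 of 56 there and 2.72% of all protein-coding genes, and this contrast was not tested. Among DNA damage and repair genes the K17KO list had 2 of 50, Bard1 (6.65-fold) and Fancd2 of the Fanconi anaemia pathway (4.09-fold). Cell cycle genes had 3 of 41, namely Cdc34, the spindle checkpoint gene Mad2l1 (5.21-fold, overlapping H3K4me3) and the proliferation marker Mki67 (3.73-fold). Chaperones had 3 of 40, with Hspa9, the mitochondrial Hsp70 (4.63-fold), beside Hsp90b1 and Dnajc10. These counts rest on 2 or 3 genes each.

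The lists for cell types of the skin are short, and the interval of each one includes the background. None of 35 epidermal differentiation genes, 20 basal keratinocyte genes, 20 dermal fibroblast genes, 15 endothelial genes, 19 immune genes, 11 melanocyte genes or 15 muscle genes had a peak near an end. Hair follicle genes had 2 of 34, the hair keratin regulator Hoxc13 (4.87-fold) and Cux1 (3.997-fold). Of the adipocyte list 1 of 14 had a peak, Cfd, whose peak lay nearer to Elane. Genes typical of other organs had 1 of 25, Gfap. The lists for apoptosis regulators (28 genes) and for translation factors and tRNA synthetases (46 genes) had none. Single members were found for the ubiquitin and proteasome list (Psma4, 1 of 48), splicing (Srsf1, 1 of 43), the H3K4 methylation machinery (Men1, 1 of 19) and Wnt, Hedgehog, Bmp and Notch signalling (Rbpj, 1 of 42).

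Gene families gave a wider range of shares. Olfactory receptors had a peak at 1 of 1110 genes (0.0901%), and vomeronasal receptors at 0 of 353. Hox genes had 5 of 39 at 3 peaks, by Hoxa10 and Hoxa11 (4.77-fold), at Hoxc13, and by Hoxd12 and Hoxd13 (3.94-fold). Histones had 4 of 67 at 2 peaks, one by H1f5 and H3c11 (4.40-fold, overlapping H3K4me3) and one by H2ac12 and H2bc12 (5.14-fold). Mitochondrial ribosomal proteins had 4 of 78, Mrpl20, Mrpl40, Mrps21 and Mrps35, at 4.09 to 5.21-fold. Cytosolic ribosomal proteins had 3 of 81, Rpl27 (4.60-fold), Rps19 and Rps27l, and all 3 peaks overlapped H3K4me3. Zinc finger genes named Zfp had 14 of 397 (3.53%) and solute carriers 8 of 375. Keratins had 1 of 53, Krt7 (3.36-fold), and keratin-associated proteins and collagens had none of 56 and 44. Neighbouring genes share peaks in these counts, and no list was tested.

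**Figure D4:**
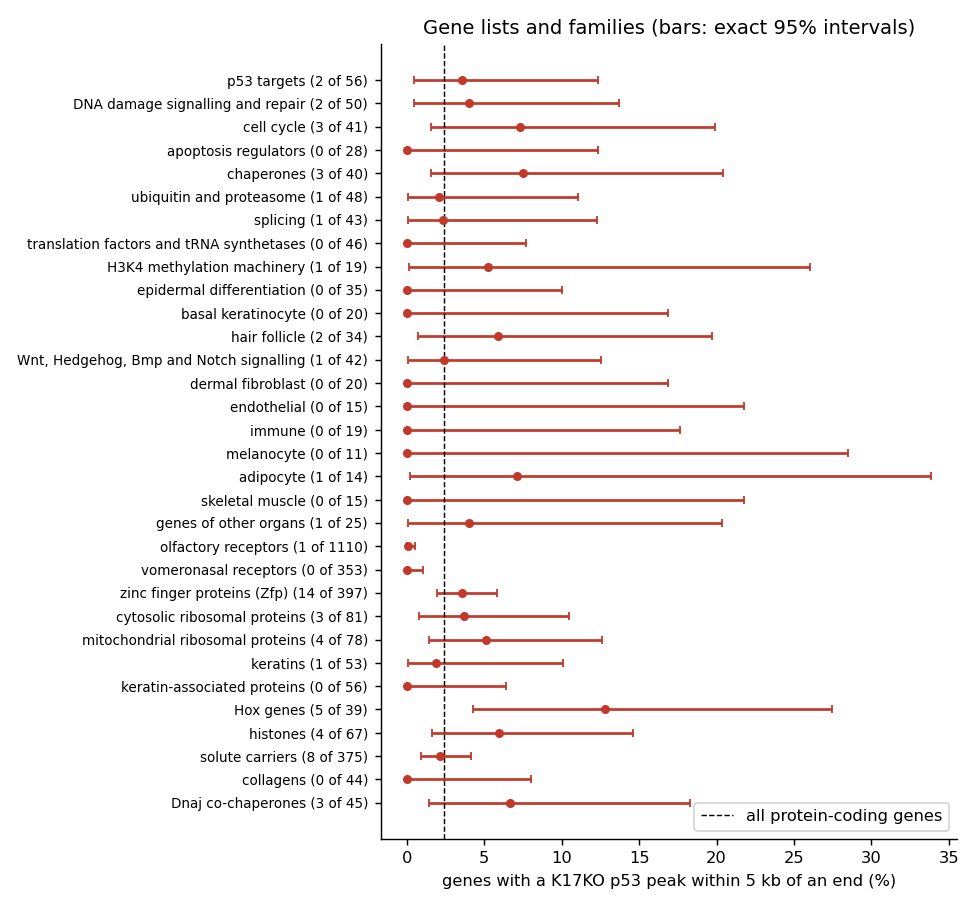
Percentage of the protein-coding genes of each list or family with a K17KO p53 peak midpoint within 5 kb of an end; bars are exact 95% intervals that cover counting only, and the dashed line is the 2.37% of all protein-coding genes. Most intervals include the line, those of olfactory and vomeronasal receptors lie below it, and that of Hox genes (5 of 39, at 3 peaks) lies above it.

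Promoter letters of the genes reached were rich in GC. The promoter table gives 300 bp around each listed start, 250 before and 50 after. A K17KO peak near a gene end overlapped 96 such windows, of 87 genes, and 504 windows belong to 408 of the 519 genes reached. The other genes have no window in the promoter table and were not searched. The median GC content was 65.5% in the overlapped windows, 61.3% in the windows of genes with a peak and 56.3% in all 21263 windows. The median observed to expected ratio of CpG was 0.813, 0.765 and 0.567 in the same order. A GC box was found on either strand in 71 of the 96 overlapped windows (74.0%), in 62.7% of windows of genes with a peak and in 46.2% of all.

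Other short motifs were searched on both strands in the same windows. CCAAT was found in 38.5% of overlapped windows, 39.3% of those of genes with a peak and 38.2% of all. The ETS core CCGGAAG had 18.8%, 15.1% and 11.6% in the same order, and the E-box CACGTG 16.7%, 11.3% and 7.84%. TATAAA was rarer in overlapped windows, with 2.08% of them, 5.16% of windows of genes with a peak and 12.6% of all. The cyclic AMP response element TGACGTCA had 2.08%, 2.18% and 2.23%, and the palindromic NRF1 site 0%, 0.198% and 1.33%, in the same order. The paired cores of p53 half-sites, CNNG and CNNG with 6 bases between them, were found in 93.8%, 87.9% and 75.1%, and the stricter pair of CATG and CATG at the same spacing, whose matches are also matches of the first, in 0%, 0.198% and 0.701%. A p53 half-site without mismatch had 5.21%, 7.74% and 7.37%. The response element of p53, in which half-sites also count, matched in 10 of 96 overlapped windows (10.4%). It matched in 11.5% of windows of genes with a peak and 8.95% of all. Such matches were thus nearly as common in the windows of any promoter. In the 35 windows that held a peak's midpoint, it matched in 4 (11.4%). A window counted as overlapped from 1 bp, and sequence under the peaks outside these windows was not searched. These shares therefore do not describe the peaks as a whole. Motifs rich in C and G match more often in GC-rich windows, whose part in these shares was not tested. Windows of one gene can overlap, so the shares were not compared by a test, and a match is not evidence of binding.

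**Figure D5:**
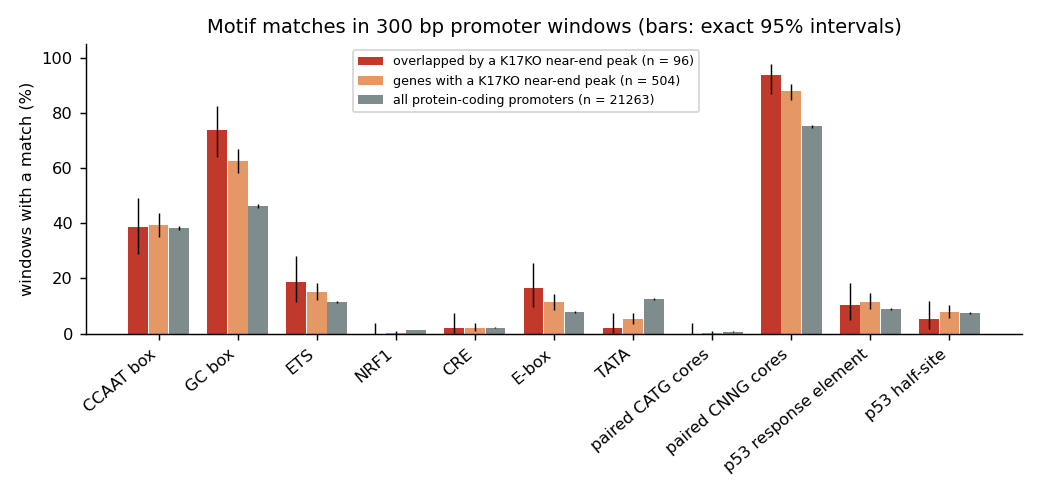
Percentage of 300 bp promoter windows with at least 1 match to each motif on either strand, for windows overlapped by a K17KO p53 peak near a gene end (n = 96), windows of the 408 genes with such a peak and a listed promoter (n = 504) and all protein-coding promoter windows (n = 21263); bars are exact 95% intervals. The GC box is at 74.0%, 62.7% and 46.2%, TATAAA at 2.08%, 5.16% and 12.6%, and the p53 response element is at 10.4%, 11.5% and 8.95%.

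The limit of 5 kb cuts through a thin tail of the distances. The last peaks inside it lay 4932 bp from an end of Cipc (6.06-fold) and 4943.5 bp from an end of Ep300 (5.19-fold). The first outside it lay 5003 bp from Dnajb14 (5.86-fold) and 5046.5 bp from Ppp1r21 (3.77-fold). None of these 4 overlapped H3K4me3 or a WT p53 peak.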

How the data were processed

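Chromatin immunoprecipitation was carried out on mouse back skin, in 12 samples of 6 groups. The analysis used the 3 deposited peak lists in MACS2's narrowPeak layout of 10 columns, without headers. Bowtie2 2.2.5, SAMtools 1.7 and MACS2 2.1.2 with mm10 are named, without roles, in the submitters' processing notes. How libraries were pooled, which control was used and where peaks were cut is not stated in the labels. The deposited score, the deposited fold (a ratio of pileup to background) and the −log10 p and −log10 q as deposited are each peak's values from the authors, used here for description, ranking and filtering inside one list. The summit offset (deposited as a position from the peak's start) served for one alternative.

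Fragments and background were recovered by taking the fold as fragments plus 1 over background plus 1, with p from the upper tail of a Poisson distribution. This returned the deposited −log10 p within 0.001 for 100.0% of peaks in each list, so it gives the depth behind each peak. The depth of the libraries is not given in the lists.

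Genes came from the RefSeq table of GRCm38.p6, with 21887 protein-coding genes on chromosomes 1 to 19, X and Y. It gives no strand, exons or introns. Strand was taken from the RefSeq promoter table for 17492 genes, and start and other end were told apart only there. K17KO peaks off the assembled chromosomes (14) counted as not near a gene. Overlap meant at least 1 bp. The test of shares was Fisher's exact test (two-sided), with Benjamini-Hochberg adjustment. Intervals are exact Clopper-Pearson at 95% for a share and Newcombe's for a difference, and cover counting error only. Alternatives were windows of 1 and 10 kb, the summit, q at most 0.01, the upper 50% by fold, an overlap of 50% of the p53 peak and all 49943 genes. Python 3.11.15, NumPy 2.4.6, SciPy 1.17.1 and pandas 2.3.3 were used, and the steps were tested on simulated data.

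The peaks described and the gene lists were chosen with earlier results of these data known. Peaks named are the 20 of highest fold, those that overlap a WT p53 peak, the 10 of highest fold that overlap H3K4me3, up to 4 per gene list, the 2 on each side of 5 kb, and the genes reported in every case. Other genes were named after their values were seen.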

Additional observations from a re-analysis of the deposited data

Results flagged for a closer look

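Several contrasts between the K17KO and WT p53 lists stood out as differences between groups by their own test. Among peaks near gene ends the share overlapping H3K4me3 was 14.4% in K17KO and 3.98% in WT, a difference of 10.4 percentage points. The share within 1 kb of an end was 58.0% in K17KO and 31.9% in WT, a difference of 26.2 points. The share of the whole list near gene ends was 37.9% in K17KO and 17.3% in WT, a difference of 20.6 points. By a gene's outermost start, 84.3% of K17KO peaks and 52.3% of WT peaks lay downstream of it, a difference of 31.9 points. Counted from the nearest of all listed starts, these shares were 74.3% and 55.0%. The nearest end was a start for 71.6% of K17KO peaks and 53.6% of WT peaks with a strand, a difference of 17.9 points. The units are peaks of a single list each, so genotype and the making of the list cannot be told apart. The last 2 contrasts were chosen after the data were seen.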

How the results depend on the processing

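Of 118 recomputed values, 103 kept their direction and side of the threshold or, for counts and shares without a test, stayed near the reported value, 5 kept their direction but no longer passed, 8 changed sign and 2 counts moved by over 1.5 times. All sign changes were in 2 comparisons that had not passed, peaks near gene ends minus other K17KO peaks. For fold above the median they were −0.780 points with a 1 kb window, −2.60 with 10 kb, −6.26 at a q-value of at most 0.01, −0.138 with all genes and −0.280 with backgrounds of at most 10 fragments. For −log10 p above the median they were 0.930 at q of at most 0.01, 5.96 in the upper 50% by fold and 0.273 with backgrounds of at most 10. No longer past the threshold were, with a 1 kb window, background above the median (4.40 points) and H3K4me3 overlap at a start minus the other end (13.7). At q of at most 0.01 these were H3K4me3 overlap in K17KO minus WT (7.10) and the share by a gene start (10.1), and in the upper 50% by fold the H3K4me3 overlap within 1 kb minus 1 to 5 kb (9.81). In the last 4 of these fewer peaks were compared. For the background with a 1 kb window, 242 peaks near gene ends were set against 859 others, in place of 417 and 684. The cause of that change was not tested. Listed genes with a peak numbered 9 with a 1 kb window and 9 in the upper 50% by fold, against 18 as reported. H3K4me3 overlap near gene ends minus other K17KO peaks ran from 9.10 to 17.6 points over 9 alternatives and passed in each. The settings for backgrounds of at most 10 fragments, for assembled chromosomes and for the side of the start were chosen after seeing the data. No paired analysis was possible because the lists name no replicate, and for the same reason no replicate could be left out. Depth limits single peaks, whose median rested on 11 fragments.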
